A study of Mus musculus with 6 samples.

Results

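Aquaporins are the membrane channels that let water, and in some members glycerol, cross cell membranes, and their expression was compared here between mouse kidneys labelled healthy and kidneys labelled acute renal failure (ARF). The members were all genes whose symbol is Aqp followed by a number and that could be read by position in the deposited counts. The intervals of each row of the count files were laid over the exons of the mouse assembly GRCm38 (GENCODE M21 basic annotation). A row counted for a gene where that gene had 0.9 or more of the overlapped exon bases and no fewer than 25 bases. Of the 11 aquaporin genes in that annotation, 4 could be read in this way, Aqp3, Aqp5, Aqp6 and Aqp7, out of 9519 genes read in all. All 4 passed the filter on low counts, as did 5246 of the 9519 genes. The other 7 were not read: no exon base of Aqp1, Aqp2, Aqp4 or Aqp8 lay under any row, and the rows that touched Aqp9, Aqp11 and Aqp12 shared too many of their bases with other genes.

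The study sequenced RNA from kidneys of C57BL/6 mice at postnatal day 21, and the diagnosis in the labels was healthy for 3 libraries and acute renal failure for the other 3. No genotype, agent or cause of the renal failure is given in the labels, although the sample titles use the words control and treat. Since nothing says that each library is from its own mouse, the p-values here speak only for the spread among libraries, which may be technical. Library totals ran from 2873370 to 5710010 counts in the healthy-labelled group and from 5455886 to 6191479 in the ARF-labelled group, and levels are given as CPM, a count scaled to the library total. In bulk kidney RNA, fewer cells of a type and less RNA per cell cannot be told apart. Over all genes tested, 1319 were higher and 1305 lower in ARF-labelled kidneys, and without normalization beyond the library total the genes called higher numbered 1749 and the genes called lower 1013. Under that scaling the median gene had a log2 fold change of 0.19 in place of 0.01.

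Water channels set how much water the kidney returns from urine to blood. In the principal cells of the collecting duct, vasopressin acts through cyclic AMP to bring Aqp2 to the luminal membrane, and water leaves the cell on the blood side through Aqp3, which also passes glycerol, and Aqp4. Aqp6 is an unusual member that stays in vesicles inside the acid-secreting intercalated cells and conducts anions as well as water. Aqp5 is a water channel best known from salivary glands, tear glands and lung, and its gene lies beside Aqp6 in a cluster that also holds Aqp2. Aqp7 is a glycerol and water channel of fat cells and of the straight part of the proximal tubule. Aquaporins fold around a pair of short loops, usually with the amino acids asparagine, proline and alanine (the NPA boxes), that meet in the middle of the pore.

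The coding sequence around the boxes is shown for the 4 genes because it separates the glycerol channels from the others. Each line is 45 spliced bases of the GENCODE M21 transcript, 5′ to 3′, with the 3 codons of the box in capitals. Aqp7 is known for boxes that depart from the usual form, with alanine in place of proline in the first and serine in place of alanine in the second.
Aqp3 first box: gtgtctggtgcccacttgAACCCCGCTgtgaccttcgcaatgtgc
Aqp7 first box: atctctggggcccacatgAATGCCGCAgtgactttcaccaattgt
Aqp5 first box: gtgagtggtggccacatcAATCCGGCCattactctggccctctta
Aqp6 first box: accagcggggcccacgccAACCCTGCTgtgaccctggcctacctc
Aqp3 second box: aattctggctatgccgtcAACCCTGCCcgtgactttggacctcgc
Aqp7 second box: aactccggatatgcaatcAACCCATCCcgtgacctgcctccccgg
Aqp5 second box: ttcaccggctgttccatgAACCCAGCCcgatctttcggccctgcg
Aqp6 second box: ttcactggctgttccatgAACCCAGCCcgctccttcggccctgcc
In the first box Aqp3 and Aqp7 shared 32 of 45 bases, and the other pairs shared 25 to 27. In the second box Aqp5 and Aqp6 shared 41 of 45 bases and Aqp3 and Aqp7 shared 31, against 23 to 29 for the other pairs. The near-identical stretch of Aqp6 was not among the bases counted for it, whereas that of Aqp5 was.

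The 250 bases before the RefSeq start site (GRCm38.p6) are shown for Aqp3 and Aqp6, the pair with the most counts in ARF-labelled kidneys. Capitals mark the motifs found among 7 searched on both strands: in Aqp3 a GC box (GGGCGG, here on the opposite strand) and a TATA box (TATAAA), and in Aqp6 an E-box (CACGTG).
Aqp3 promoter, chr4:41098184-41098433, minus strand: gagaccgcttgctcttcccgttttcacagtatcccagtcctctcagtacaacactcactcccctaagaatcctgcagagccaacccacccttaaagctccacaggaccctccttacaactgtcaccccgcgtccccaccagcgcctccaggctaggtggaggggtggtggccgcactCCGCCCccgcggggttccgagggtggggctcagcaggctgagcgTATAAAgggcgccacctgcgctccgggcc
Aqp6 promoter, chr15:99600950-99601199, plus strand: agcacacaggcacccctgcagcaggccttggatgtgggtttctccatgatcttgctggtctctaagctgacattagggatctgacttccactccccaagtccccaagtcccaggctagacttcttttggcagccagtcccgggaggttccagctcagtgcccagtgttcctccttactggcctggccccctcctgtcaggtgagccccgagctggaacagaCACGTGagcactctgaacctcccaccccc
The GC box and the TATA box of Aqp3 lay 73 and 29 bases before the start, and 32.7% and 12.4% of 32851 mouse promoters of the same length held these motifs. The E-box of Aqp6 lay 29 bases before the RefSeq start, and 6.02% of promoters held it. For Aqp6 the RefSeq start directly follows position 99601199, whereas the GENCODE start used in all other parts of this report is 99601400. The other motifs searched were in neither window. The cyclic AMP response element, TGACGTCA, was held by 1.55% of promoters and its short form, TGACG, by 17.8%. A GATA motif spelled AGATAA was held by 9.99% of promoters. A forkhead motif spelled TGTTTAC was held by 3.17%.

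Aqp3, Aqp5 and Aqp6 were higher and Aqp7 was lower in ARF-labelled kidneys. All 4 passed edgeR's quasi-likelihood test (Benjamini-Hochberg adjusted p under 0.05 over all genes), where 50.0% of genes tested were called, 25.1% higher and 24.9% lower. In none of the 4 did the CPM of the groups overlap, which held for 62.4% of genes tested. A call by itself was thus common in this comparison.

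Aqp3, the exit channel of principal cells, was by far the most abundant aquaporin read. The gene (ENSMUSG00000028435.8) lies on the minus strand at chr4:41092722-41098183, and all 1765 of its exon bases were counted in a row of its own name. The healthy-labelled libraries held 19753, 9393 and 10685 counts and the ARF-labelled libraries 44478, 51420 and 46020. Scaled to the library totals these were 3459, 3269 and 2943 CPM against 8152, 9306 and 7433 CPM. Every ARF-labelled library was more than 2-fold above every healthy-labelled library. Aqp3 made up 0.322% of all counts in healthy-labelled kidneys (3224 ± 261 CPM, SD, n = 3) and 0.830% in ARF-labelled kidneys (8297 ± 945 CPM, n = 3). The log2 fold change was 1.19 (SE 0.14), a 2.28-fold rise with a 95% interval from 1.83 to 2.86, and the adjusted p was 0.000239 by edgeR's quasi-likelihood test.

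Aqp6, the vesicle channel of intercalated cells, rose by a larger factor from a lower level. The gene (ENSMUSG00000043144.6) lies on the plus strand at chr15:99601400-99605477, and 755 of its 2423 exon bases (31.2%) were counted, in 3 rows that carry names of other genes. Its counts were 539, 465 and 377 in healthy-labelled and 3401, 3068 and 4028 in ARF-labelled libraries. These came to 94.4, 162 and 104 CPM against 623, 555 and 651 CPM, so the healthy-labelled library 2 stood above the other two of its group and still far under the ARF-labelled range. The means were 120.02 ± 36.5 and 609.7 ± 49.1 CPM (SD, n = 3 each). The rise was 4.53-fold (log2 2.18, SE 0.20; 95% interval 3.32 to 6.18-fold), with an adjusted p of 6.61e-05 by edgeR's quasi-likelihood test. Of all genes tested, 2.97% were called higher by at least 4-fold.

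The 3 rows of Aqp6 gave the same picture when tested apart. Their log2 fold changes were 2.25 (SE 0.18), 2.24 (SE 0.18) and 2.04 (SE 0.24). The row with the most counts held between 50.1% and 55.5% of the gene's counts in each library, and its share overlapped between the groups. Of the bases in the 3 rows, 85.0% lay outside the GENCODE exons of Aqp6, but the rows differed. Some of these bases lie between the RefSeq start and the later GENCODE start of Aqp6. Exons of Aqp6 held 340 of 4026 bases of the row at 2.25 and 294 of 739 of the row at 2.24. They held all 252 bases of the row at 2.04. For the rows at 2.25 and 2.24 the counts do not tell which bases the reads lay on.

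Aqp5, the gland and lung water channel, had a log2 fold change near that of its neighbour Aqp6 but few counts. The gene (ENSMUSG00000044217.17) lies on the plus strand at chr15:99590782-99594829, 6.57 kb before Aqp6, and 527 of its 1797 exon bases (29.3%) were counted. Its counts were 27, 12 and 11 in healthy-labelled and 87, 101 and 154 in ARF-labelled libraries, or 4.73, 4.18 and 3.03 against 15.9, 18.3 and 24.9 CPM. The lowest ARF-labelled library was more than 3 times the highest healthy-labelled library. The means were 3.98 ± 0.867 and 19.7 ± 4.63 CPM (SD, n = 3 each), a 4.31-fold rise (log2 2.11, SE 0.27; adjusted p = 0.000354, edgeR's quasi-likelihood test). Its single row covers 5740 bases, of which 90.8% are no exon of Aqp5, a larger part than for any other member.

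Aqp7, the glycerol channel of the proximal straight tubule, was the only aquaporin read that fell. The gene (ENSMUSG00000028427.13) lies on the minus strand at chr4:41033074-41048139, 44.6 kb from Aqp3, and all 2560 of its exon bases were counted in a row of its own name. Its counts were 185, 82 and 118 in healthy-labelled and 147, 107 and 141 in ARF-labelled libraries. Relative to depth these were 32.4, 28.5 and 32.5 CPM against 26.9, 19.4 and 22.8 CPM, and the ranges of the groups did not overlap. The means were 31.1 ± 2.26 and 23.0 ± 3.80 CPM (SD, n = 3 each), and the level was 1.53-fold lower (log2 -0.62, SE 0.16; adjusted p = 0.0107, edgeR's quasi-likelihood test). Scaled by the library total alone the log2 fold change was -0.44 (adjusted p = 0.0427).

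**Figure D1:**
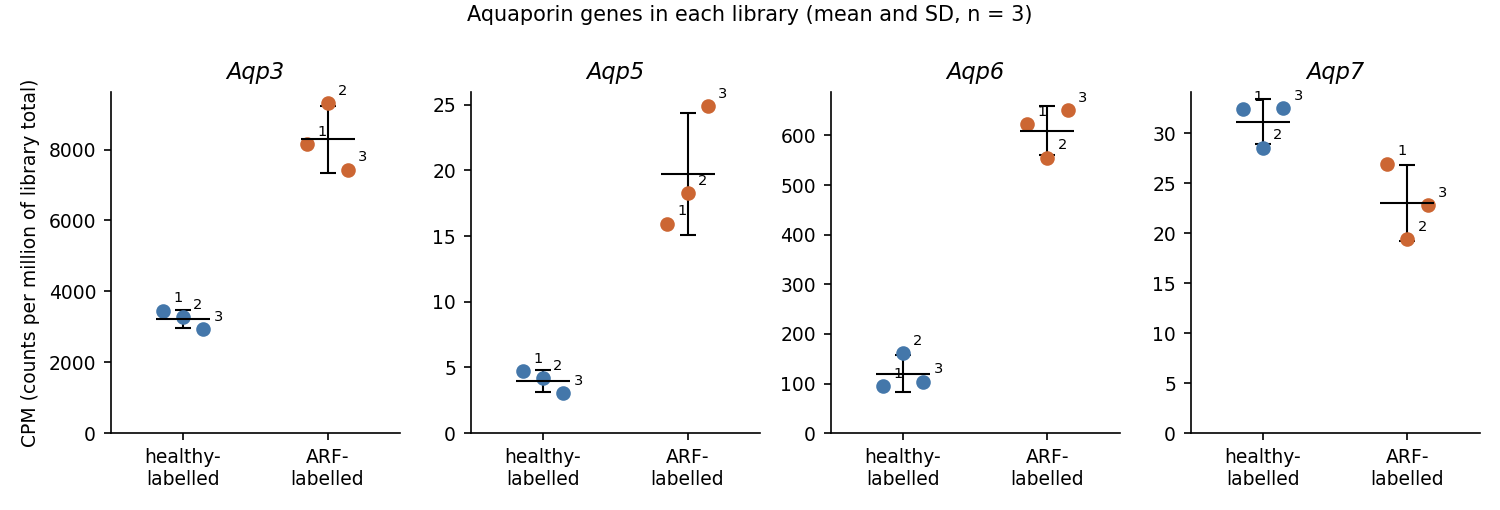
CPM (vertical axes, linear, starting at 0, 1 scale per gene) of Aqp3, Aqp5, Aqp6 and Aqp7 in the 3 healthy-labelled and the 3 ARF-labelled libraries, with points for libraries and the mean with its SD beside them. The ARF-labelled points lie above all healthy-labelled points for Aqp3, Aqp5 and Aqp6 and below them for Aqp7.

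**Figure D2:**
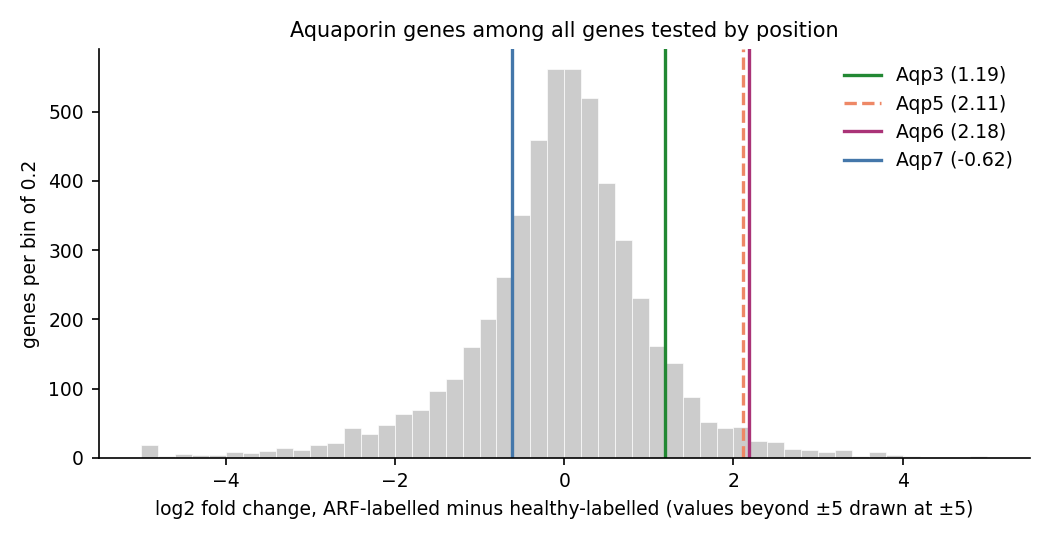
Number of genes tested (vertical axis) by log2 fold change, ARF-labelled minus healthy-labelled, in bins of 0.2 (horizontal axis), with lines at the 4 aquaporins. Aqp5 (2.11) and Aqp6 (2.18) lie far to the right of the median gene (0.01), Aqp3 (1.19) nearer to it, and Aqp7 (-0.62) to its left.

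Levels of different genes can be set beside each other only per length, here as CPM per kilobase of counted exon. In healthy-labelled kidneys the order was Aqp3 (1826 ± 148), Aqp6 (159 ± 48.4), Aqp7 (12.2 ± 0.882) and Aqp5 (7.55 ± 1.64 CPM per kilobase, SD, n = 3). In ARF-labelled kidneys Aqp5 and Aqp7 had changed places, with Aqp3 at 4701 ± 535, Aqp6 at 808 ± 65.0, Aqp5 at 37.4 ± 8.79 and Aqp7 at 8.995 ± 1.48 CPM per kilobase. No neighbours in either order overlapped between libraries. The distance between the glycerol and water channel of principal cells and the intercalated cell channel narrowed, from 11.5 times more Aqp3 than Aqp6 per kilobase to 5.82 times. Since most bases in the rows of Aqp5 and Aqp6 lie outside the exons of these genes, their levels per kilobase of exon are approximate. Aqp3 and Aqp7 were read whole.

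Ratios of counts within a library do not depend on how libraries are scaled, and 5 of them were tested with an exact two-sided permutation test over libraries. With 3 libraries against 3 the smallest p is 0.1, so none could pass 0.05. The ratios of Aqp7 to Aqp3 and of Aqp5 to Aqp6 were not planned beforehand. The log2 ratio of Aqp6 to Aqp3 was -5.19, -4.33 and -4.82 in healthy-labelled and -3.71, -4.07 and -3.51 in ARF-labelled libraries. It was higher in every ARF-labelled library, by 1.02 on the log2 scale or 2.03-fold (exact permutation p = 0.1, adjusted p = 0.167). The difference was larger than the SD of either group (0.43 and 0.28). The ratio of Aqp7 to Aqp3 was 3.50-fold lower in ARF-labelled libraries (difference -1.81, exact permutation p = 0.1, adjusted p = 0.167), again without overlap. The ratio of Aqp5 to Aqp6 overlapped between the groups (difference -0.12, exact permutation p = 0.8, adjusted p = 0.8).

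**Figure D3:**
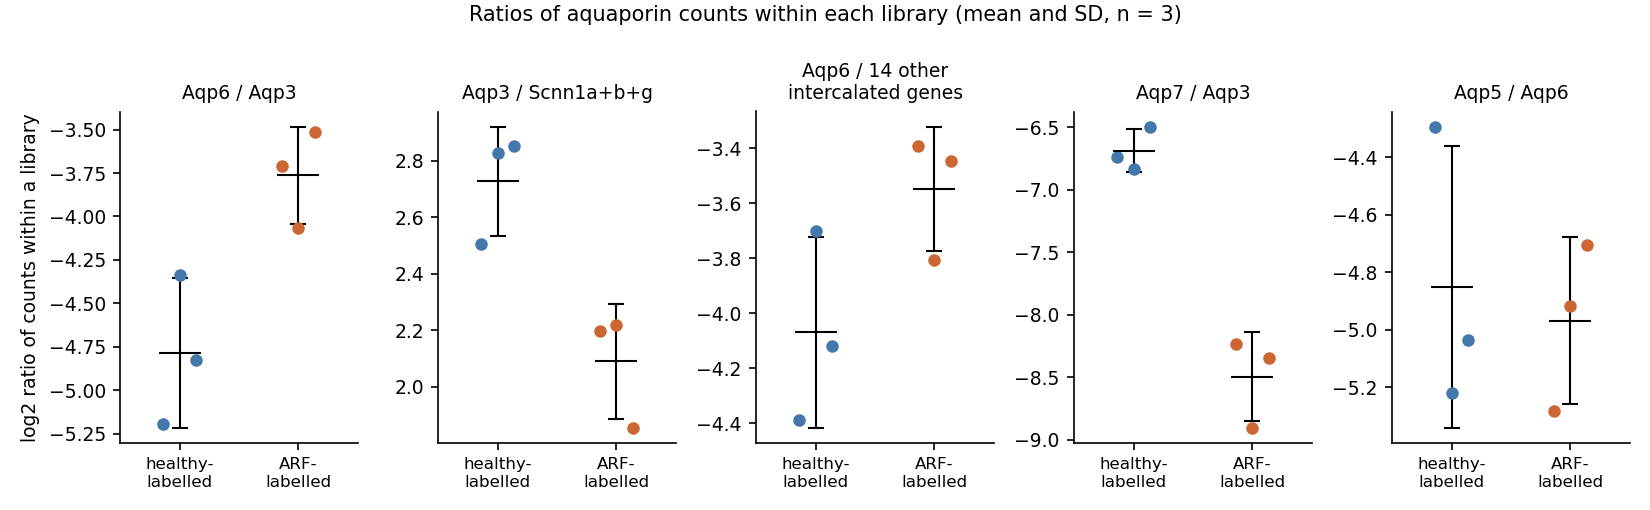
Log2 ratio of counts within each library (vertical axes) for the tested ratios, in healthy-labelled and ARF-labelled kidneys, with points for libraries and the mean with its SD (n = 3). Aqp6 is set against the sum of 13 other intercalated cell genes, and the number in that panel's title is wrong. Aqp6 over Aqp3 shifted up by 1.02 and Aqp7 over Aqp3 fell by 1.81, whereas the points of Aqp5 over Aqp6 overlap.

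Among the tested genes that mark principal cells, Aqp3 had the smallest log2 fold change, 1.19 (SE 0.14), which lay within 1 SE of that of Scnn1a. All 4 other markers tested, of 13 others listed, were higher: the sodium channel subunits Scnn1a (log2 1.27, SE 0.15), Scnn1b (1.59, SE 0.22) and Scnn1g (2.67, SE 0.15), and Kcnj1 (3.75, SE 0.22), a potassium channel that the loop of Henle also expresses. Their median log2 fold change was 2.13, against 0.01 over all genes. The summed CPM of these other markers was 416 to 622 in healthy-labelled and 1963 to 2253 in ARF-labelled libraries. Unlike Aqp3, they were read over only part of their exon bases. At most 355 of 4132 bases were counted for Scnn1a, 545 of 2478 for Scnn1b, 609 of 2991 for Scnn1g and 67 of 3333 for Kcnj1. The log2 ratio of Aqp3 to the 3 sodium channel subunits was 2.50, 2.83 and 2.85 in healthy-labelled and 2.20, 2.22 and 1.85 in ARF-labelled libraries. Aqp3 thus made up a smaller part beside the sodium channel in every ARF-labelled library, by 1.56-fold (exact permutation p = 0.1, adjusted p = 0.167). The vasopressin receptor Avpr2 and Aqp4, other markers of this cell, were not read.

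Aqp6 rose with the other genes of intercalated cells and lay within their range. Of 13 other markers tested, 12 were higher, none was lower and Car12 (log2 0.27, SE 0.10, adjusted p = 0.0594), a carbonic anhydrase, did not pass edgeR's quasi-likelihood test. Slc4a1, the chloride-bicarbonate exchanger of acid-secreting cells, rose by 2.86 (SE 0.27) on the log2 scale. Atp6v0d2, a subunit of the proton pump, rose by 1.65 (SE 0.14) and Hepacam2, an adhesion protein found in these cells, by 2.59 (SE 0.14). Of the 13, 5 had a larger log2 fold change than Aqp6 and 8 a smaller one, with a median of 1.77. Their summed CPM was 1806 to 2104 in healthy-labelled and 6537 to 7764 in ARF-labelled libraries. The log2 ratio of Aqp6 to the sum of these 13 genes was 0.52 higher in ARF-labelled libraries, but the groups overlapped (exact permutation p = 0.2, adjusted p = 0.25).

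**Figure D4:**
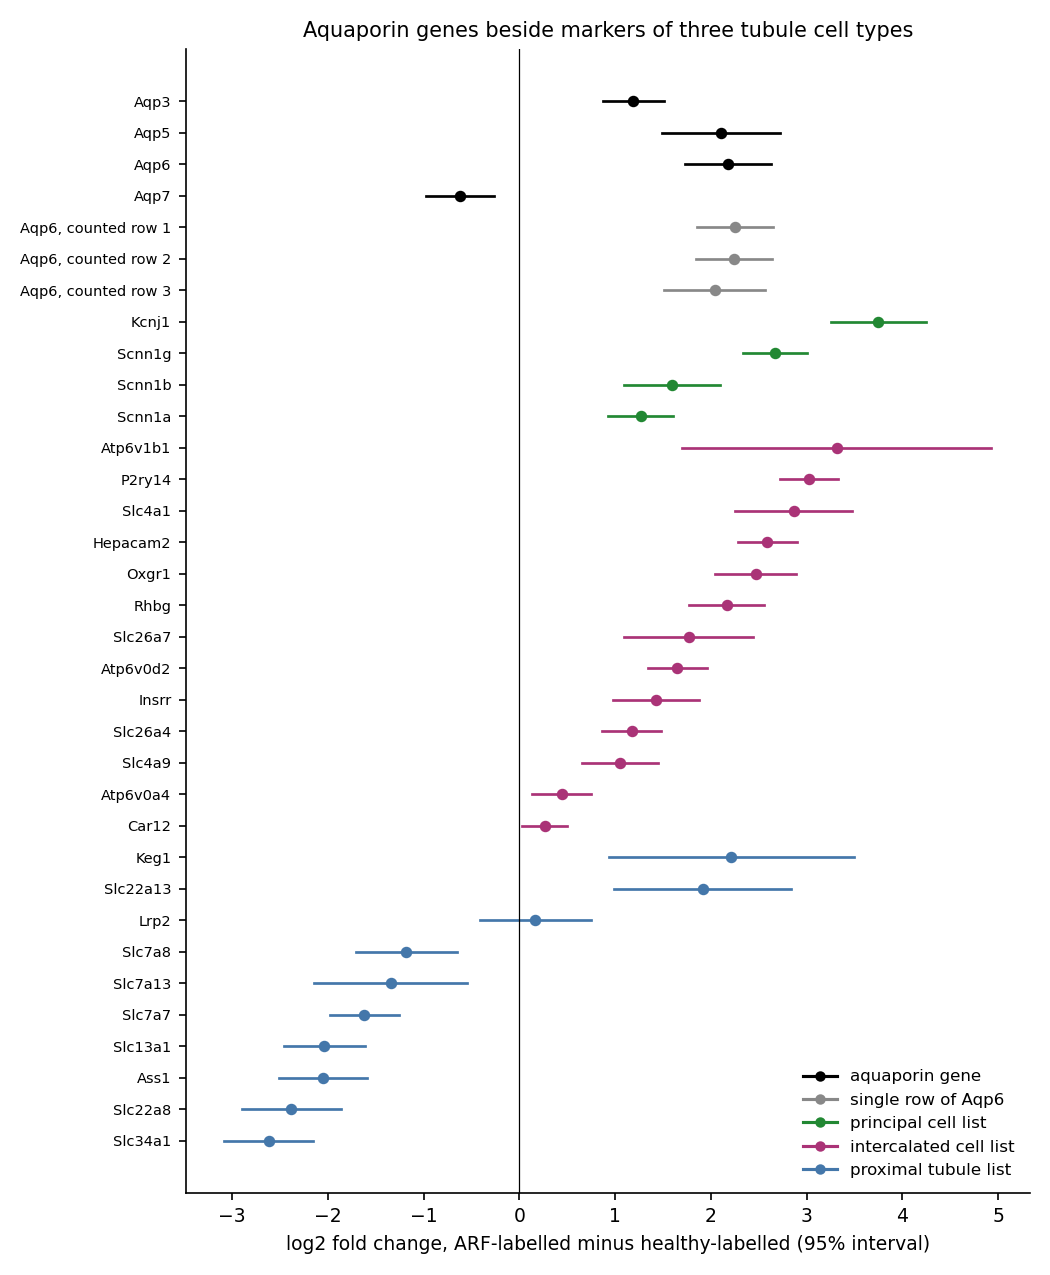
Log2 fold change with its 95% interval (horizontal axis) for the aquaporins and for the tested markers of principal cells, intercalated cells and the proximal tubule. Aqp3 is the smallest of the principal cell genes at 1.19, Aqp6 at 2.18 lies among the intercalated cell genes, and Aqp7 at -0.62 lies above most proximal tubule genes.

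Aqp7 fell with most proximal tubule genes but by less than most of them. Of 10 markers tested, 7 were lower and 2 higher, and Lrp2, the endocytosis receptor megalin, did not pass the test (log2 0.17, SE 0.25). The log2 fold change was -2.62 (SE 0.20) for the phosphate transporter Slc34a1, -2.04 (SE 0.19) for the sulphate transporter Slc13a1 and -2.05 (SE 0.20) for Ass1, an enzyme of arginine synthesis. The change of Aqp7 was smaller than that of the 7 lower genes. While Aqp7 was read whole, at most 160 of 4026 exon bases were counted for Slc34a1 and 230 of 1696 for Ass1. For Slc13a1 these were 2480 of 2495. The summed CPM of the markers was 6978 to 10784 in healthy-labelled and 3367 to 4703 in ARF-labelled libraries. Fat cells also make Aqp7: of 4 adipocyte genes tested, of 10 listed after the data were seen, 2 were lower (Cd36 and Lep) and none higher. Cidec and Retn did not pass edgeR's quasi-likelihood test, although Cidec was called lower without healthy-labelled library 1 (adjusted p = 0.0298). The summed CPM of the 4 genes was 261 to 495 in healthy-labelled and 106 to 142 in ARF-labelled libraries. The highest sum, in healthy-labelled library 2, held 265 CPM of Lep, against 17.5 and 48.5 CPM in libraries 1 and 3. The part of either cell type in the fall of Aqp7 was not tested.

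Of 19 listed genes that handle glycerol, the solute of Aqp3 and Aqp7, 4 were tested and 3 of these were higher: Gpam (log2 0.76, SE 0.14), the first enzyme of glycerolipid synthesis, Mgll (0.54, SE 0.12), which frees glycerol from monoglycerides, and Agpat1 (0.50, SE 0.12), a later enzyme of glycerolipid synthesis. Agpat1 lost its call without healthy-labelled library 3 (adjusted p = 0.0509, edgeR's quasi-likelihood test). Agpat3 did not pass, at a log2 fold change of 0.30 (SE 0.12, adjusted p = 0.0746). The median of the 4 was 0.52, and 25.1% of all genes tested were called higher.

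Genes listed for the vasopressin, cyclic AMP and vesicle trafficking pathway that governs the collecting duct's water channels were more often lower than higher. The list joins genes that drive cyclic AMP signals with genes that restrain them, so counts over it give no direction for the pathway. Of 18 tested, of 51 listed, 10 were lower, 2 were higher and 6 did not pass, with a median log2 fold change of -0.57, where 24.9% of all genes were called lower. Gnai3, an inhibitory G protein subunit, fell by 1.03 (SE 0.13), and Crem, a modulator of cyclic AMP responsive transcription, fell by 1.29 (SE 0.20). Pde3a, which breaks down cyclic AMP, fell by 1.75 (SE 0.30), and Adcy9, which makes it, rose by 0.82 (SE 0.14). Both are named after their values were seen. Itpr1, a calcium release channel, rose by 1.16 (SE 0.13), and Ndfip1, an adaptor of ubiquitin ligases, had a log2 fold change of 0.23 (SE 0.14, adjusted p = 0.196 by edgeR's quasi-likelihood test). The summed CPM of these genes was 3912 to 4354 in healthy-labelled and 3699 to 3997 in ARF-labelled libraries, which overlapped.

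Genes of urine concentration were higher, as was Aqp3, or not called. Of 8 tested, of 20 listed, 5 were higher and none lower, with a median of 0.79, where 25.1% of all genes were called higher. Kcnj1, also a principal cell marker, was among the 5. Slc14a2, the urea transporter of the inner medulla, is named after its value was seen and rose by 1.47 (SE 0.13) on the log2 scale. Hspa4l, a chaperone induced by high salt, rose by 0.92 (SE 0.11). Cryab, a small heat shock protein of the medulla, was called at a log2 fold change of 0.36 (SE 0.13) with an adjusted p of 0.0490 by edgeR's quasi-likelihood test. It lost its call in 6 alternatives, with adjusted p from 0.0572 to 0.194. The osmolyte transporter Slc6a6, which carries taurine, did not pass (0.11, SE 0.14).

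Transcription factors of the collecting duct were mixed, with 5 of 10 tested higher, 1 lower and 4 not called (median 0.50). Over all genes, 25.1% were called higher and 24.9% lower. Ehf, an epithelial factor, rose by 2.08 (SE 0.15), and its profile was among the 5 nearest to that of Aqp5. Klf5, a collecting duct factor, fell by 0.96 (SE 0.11). Hnf4a, which had the highest CPM of the list and is best known as a proximal tubule factor, did not pass edgeR's quasi-likelihood test, at a log2 fold change of -0.53 (SE 0.21, adjusted p = 0.0696). It was called lower with DESeq2 (adjusted p = 0.0360) and without healthy-labelled library 2 (adjusted p = 0.0256), and 2 genes of the list were then lower. Grhl2, a regulator of epithelial barriers, had a log2 fold change of 0.45 (SE 0.12, adjusted p = 0.0144), which lost its call without healthy-labelled library 2 (adjusted p = 0.0567) or 3 (adjusted p = 0.0746, all by edgeR's quasi-likelihood test). Genes listed for the aldosterone and glucocorticoid response were lower in 4 of 5 tested, of 18 listed, with a median of -0.79, where 24.9% of all genes were called lower. Sgk1, also in this list, did not pass the filter on low counts, with at most 440 of its 4054 exon bases counted. The log2 fold change was -0.74 (SE 0.12) for the glucocorticoid receptor Nr3c1, -0.81 (SE 0.17) for its target Fkbp5 and -0.79 (SE 0.16) for Klf9, another target. Usp2, also a target, did not pass (0.19, SE 0.17).

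Urothelium also makes Aqp3. Of 5 urothelial and squamous markers tested, 1 was higher (Upk3a, log2 1.86, SE 0.28), 1 was lower (Krt20, log2 -3.87, SE 0.21) and 3 did not pass. Their summed CPM, over the 8 genes read, was 283 to 458 in healthy-labelled and 308 to 417 in ARF-labelled libraries, which overlapped. That sum joins opposite changes, with Upk3a at 49.0 ± 22.3 and 204 ± 10.9 CPM and Krt20 at 158 ± 16.7 and 12.2 ± 3.66 CPM (SD, n = 3 each). It thus does not tell whether urothelial RNA changed, and the part of urothelium in the rise of Aqp3 was not tested. The basal keratins were present, with Krt5 at 77.3 ± 51.6 and 59.6 ± 18.3 CPM and Krt15 at 21.6 ± 14.7 and 49.4 ± 19.3 CPM (SD, n = 3 each), and neither passed edgeR's quasi-likelihood test. Trp63, a factor of the basal layer, had 0 counts in all 6 libraries over the 110 of its 8391 exon bases that were counted. Of 4 erythroid genes tested, 2 were lower (the globin Hbb-bs and the haem enzyme Alas2) and the 1 higher was Slc4a1, which intercalated cells share. Macrophage genes were lower in 6 of 7 tested (3 of 7 without healthy-labelled library 3), with a summed CPM of 59.5 to 122 against 37.0 to 43.4, and endothelial genes were lower in 3 of 6. Over all genes, 24.9% were called lower.

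The genes around the aquaporins were examined as genomic context, within 200 kb. Around Aqp5 and Aqp6, on chromosome 15, 3 of the 5 genes tested beside each were higher, the other aquaporin included, and none was lower. Racgap1, a regulator of cell division, rose by 2.41 (SE 0.21), and Faim2, an inhibitor of cell death, rose by 3.12 (SE 0.56) from a level of 0.757 ± 0.662 CPM. Asic1, an acid-sensing channel (log2 1.17, SE 0.44, adjusted p = 0.0528), and Lima1, an actin-binding protein (-0.10, SE 0.19), did not pass edgeR's quasi-likelihood test. Around Aqp3, on chromosome 4, 2 of 8 were higher, 3 lower and 3 not called. Over all genes, 25.1% were called higher and 24.9% lower. Chmp5, a membrane-sorting protein, rose by 1.16 (SE 0.15), while the read gene nearest to Aqp3, the ribosome assembly factor Nol6, fell by 0.46 (SE 0.14). Nfx1, 7.08 kb from Aqp7, did not pass (log2 -0.16, SE 0.10).

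**Figure D5:**
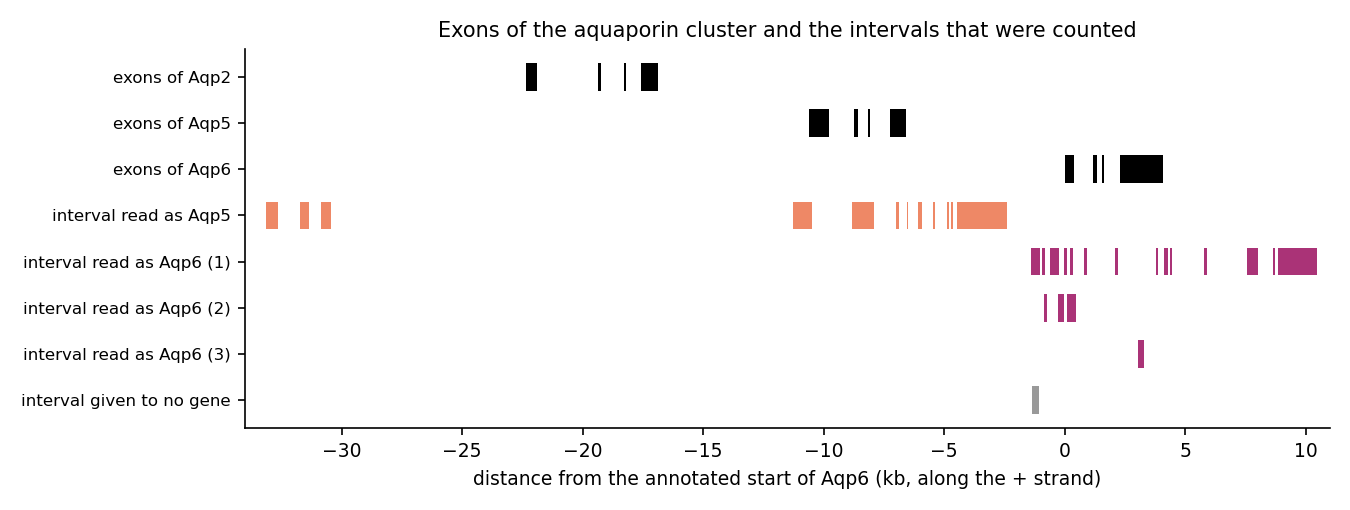
Map of the aquaporin cluster on chromosome 15, with distance from the annotated start of Aqp6 in kb along the plus strand (horizontal axis), the exons of Aqp2, Aqp5 and Aqp6, and the intervals counted for Aqp5 and Aqp6. The intervals cover 527 exon bases of Aqp5 and 755 of Aqp6, and none of Aqp2.

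The tested genes whose profiles over the 6 libraries were nearest to each aquaporin were found among 3626 genes by the root mean square difference of log2 CPM, each profile centred on its own mean. These are descriptions of 6 libraries that fall into 2 groups, and many genes share such a step. Nearest to Aqp3 were Zfp629 (0.052), Etnk1 (0.058), Thap4 (0.072), Myh10 (0.076) and Plcb4 (0.079). Nearest to Aqp6 were Tspoap1 (0.095), Slc2a4 (0.106), Taf3 (0.114), Adam22 (0.116) and Rab11fip4 (0.156). Nearest to Aqp5 were Tmprss2 (0.145), Gal3st1 (0.202), Tmem52 (0.203), Rabep2 (0.210) and Ehf (0.211), and nearest to Aqp7 were Ap2a2 (0.091), Usp24 (0.091), Psme4 (0.091), Heg1 (0.094) and Ifnlr1 (0.099). Aqp5 and Aqp6 differed from each other by 0.340 and Aqp3 and Aqp6 by 0.589, so none of the aquaporins was among the 5 nearest of another.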

How the data were processed

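Kidney RNA of 6 libraries, 3 per group, was grouped by the diagnosis in the labels. The authors deposited raw counts per gene row and library, which per the file headers come from featureCounts 2.0.1 (unstranded, exons grouped by gene name, both mates aligned). The headers name no build. Bowtie 0.12.2 and mm9 stand in the submitters' processing notes. A deposited score per row, named FPKM by the authors, was not used.

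Row names did not match GRCm38 positions, so intervals were intersected with GENCODE M21 basic exons (bedtools 2.31.1), which read 12401 of 53546 rows and 63.0% of the counts. Many genes were read over only part of their exon bases, so their CPM are not whole-gene levels. Counts were summed per gene and tested with edgeR 4.0.16 (R 4.3.3; quasi-likelihood test, TMM, filterByExpr, two-sided, Benjamini-Hochberg adjusted p under 0.05). The test was checked on simulated counts: for the comparison of ARF-labelled and healthy-labelled libraries, with 5179 genes passing the filter, it called 45 of 50 genes raised 4-fold and 30 of 49 raised 2-fold. Of the 4981 genes left unchanged it called 11. Far fewer genes changed there than in the real data, where 50.0% were called, so the check does not cover that setting. Ratios had 0.5 added to each count. Alternatives covered scaling, DESeq2 1.42.0, filters, row rules, a replicate block and leaving out each library. Every aquaporin read is named. Named list genes are the up to 4 tested genes per list with the highest mean CPM, and Slc14a2, Krt15, Pde3a and Adcy9 were chosen after their values were seen. All genes named as neighbours lie within 200 kb. Aquaporins and lists were chosen with earlier results of these data known, and 2 genes once in the lists are not reported here. Sequences come from RefSeq and GENCODE.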

Additional observations from a re-analysis of the deposited data

How the results depend on the processing

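The calls and directions of Aqp3, Aqp5, Aqp6 and Aqp7 were the same in all 15 alternatives run. Their log2 fold changes ranged from 1.10 to 1.36, 1.92 to 2.29, 2.03 to 2.42 and -0.72 to -0.44, with adjusted p at most 0.00281, 0.00250, 0.000781 and 0.0427 (edgeR's quasi-likelihood test or DESeq2). Replicate numbers did not pair the libraries: deviations of libraries with the same number correlated at -0.07, -0.22 and -0.29. With the replicate number as a block the 4 log2 fold changes were 1.19, 2.09, 2.21 and -0.62, genes called higher numbered 1135, and the 4 calls were the same, while Hnf4a became called lower (adjusted p = 0.0186, edgeR's quasi-likelihood test). The Aqp5 over Aqp6 ratio, which was not called, changed sign to 0.16 without healthy-labelled library 1 and to 0.04 without ARF-labelled library 1, and ranged from -0.30 to 0.16 over the libraries left out. The cause was not tested. The Aqp6 over Aqp3 ratio ranged from 0.82 to 1.25 over the libraries left out. Car12 passed the threshold with total-count scaling (log2 0.44) and with DESeq2 (0.27). Ndfip1 and Agpat3 also passed with total-count scaling (0.40 and 0.48), and Psme4 lost its call there (-0.26). Aqp5, with 50 counts in healthy-labelled libraries, is the member most limited by depth, followed by Aqp7 with 385.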

Other observations

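A row that lies mostly before the GENCODE start of Aqp6, and that was given to no gene, had 0 counts in each healthy-labelled library and 8, 4 and 11 counts in the ARF-labelled libraries. Its part before the start lies within an interval that was also counted for Aqp6. The rest is a short piece at 1.959 to 1.972 kb after the start, in no exon. The counts do not tell which part the reads lay on. Markers of segments that lead into the collecting duct were mixed. Of 5 tested genes of the distal convoluted and connecting tubule, 4 were lower and Calb1, a calcium-binding protein, rose by 1.98 (SE 0.35) on the log2 scale. Of 4 tested loop of Henle genes, Kcnj1 and Pou3f3 were higher, Ptger3, a prostaglandin receptor, was lower and Epha7 did not pass edgeR's quasi-likelihood test. Pou3f3 lost its call without healthy-labelled library 1, and Ptger3 lost its call with total-count scaling, with DESeq2 and with the replicate block, among others.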
